A study of Mus musculus with 2 samples.

Results

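Regulators of G protein signalling (RGS proteins) were followed in RNA of mouse pancreatic islets, which hold the endocrine cells of the pancreas. The 10 genes taken were the rows named Rgs2, Rgs3, Rgs4, Rgs5, Rgs7, Rgs9, Rgs11, Rgs16, Rgs17 and Rgs19, of 54532 genes in the count table, and all 10 had enough reads to be measured. The groups were Brsk2 transgenic mice, which over-express this AMPK-related kinase, from the line labelled Line20, and wild-type (WT) mice. All were male C57BL/6 mice aged 10 to 12 weeks, and both genotypes had doxycycline, a drug that switches on inducible transgenes, in their water over 4 days when they were 8 to 10 weeks old. The sources used here give neither the promoter that drives the transgene nor the number of mice behind each library.

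Receptors of the G protein-coupled class switch on heterotrimeric G proteins by loading the alpha subunit with GTP. RGS proteins bind the loaded alpha subunit, speed up GTP hydrolysis and so end the signal. In islets, such receptors carry the signals of acetylcholine, adrenaline, somatostatin, incretins and fatty acids that adjust hormone secretion. The 10 genes fall into 3 subfamilies: R4, mostly small proteins that act on Gi/o and Gq (Rgs2, Rgs3, Rgs4, Rgs5, Rgs16), R7, which need the beta subunit Gnb5 as a partner (Rgs7, Rgs9, Rgs11), and RZ, which include regulators of Gz (Rgs17, Rgs19).

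Reads assigned to genes numbered 16832312 in the transgenic and 20389499 in the WT library. With 1 library per group there was no spread between animals to test against, so no p-value is given and no difference has a replicate check. Ratios are transgenic over WT in CPM (reads scaled to a common library size, with TMM factors), and brackets hold a 95% interval that covers counting error only. Genes are called higher or lower if they pass 1.5-fold and their interval leaves out 1. Brsk2 had 94.3 CPM in the transgenic and 36.4 CPM in the WT library, a ratio of 2.59 [2.37, 2.83], with reads of the transgene and the endogenous gene not separated. Chga, which marks endocrine granules, was abundant at 11307 CPM in the transgenic and 10603 CPM in the WT library. Digestive enzyme genes of acinar cells, the exocrine cells around islets, took 6.48% of transgenic and 1.41% of WT reads. The summed level of 12 beta cell genes was 194890 CPM in the transgenic and 256102 CPM in the WT library, and that of 8 alpha cell genes was 31378 CPM in the transgenic and 19829 CPM in the WT library. Hormone genes made up most of both sums. Ins2 had 159492 CPM in the transgenic and 199302 CPM in the WT library. Gcg had 28565 CPM in the transgenic and 17925 CPM in the WT library. In bulk RNA, fewer cells of a type and less RNA per cell cannot be told apart, and the part of these differences in the results below was not tested.

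Summed over the 10 genes, RGS reads were close to equal in the libraries, but Rgs2 took a smaller and Rgs4 and Rgs16 a larger share of them in the transgenic library. Reads of the 10 genes came to 683 CPM in the transgenic and 676 CPM in the WT library, a ratio of 1.01 [0.986, 1.04]. Only Rgs16 was called higher, and only Rgs3 was called lower. Over all 17709 genes with at least 10 reads, 7.78% were called higher and 5.89% lower, and among the 12069 genes with at least 100 reads, as all 10 members had, 5.67% were higher and 5.66% lower. A count of 1 in 10 in each direction is therefore near the background. The same 2 genes passed 1.5-fold with no condition on the interval, against 13.5% of all genes higher and 10.1% lower, and none passed 2-fold, against 4.26% and 2.53%. The median log2 ratio of the members was -0.01, beside 0.01 over all measured genes. Without the 1.5-fold condition, the interval lay above 1 for 3 members (Rgs4, Rgs16 and Rgs17) and below 1 for 2 (Rgs2 and Rgs3), against 22.8% and 29.4% of genes with at least 100 reads. None of the 10 genes was among the 108 in the authors' deposited table, whose smallest absolute log2 fold change was 1.57.

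**Figure D1:**
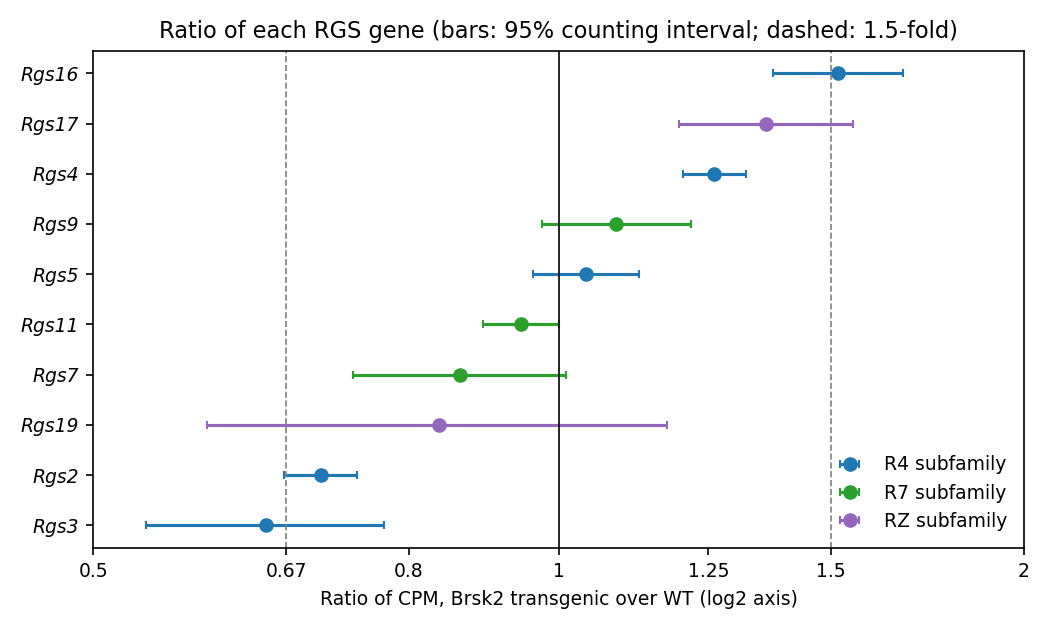
Ratio of CPM, transgenic over WT, of each RGS gene (points, coloured by subfamily) with its 95% counting interval, on a log2 axis; dashed lines mark 1.5-fold. Rgs16 lies highest at 1.52 and Rgs3 lowest at 0.647, and the 5 R4 genes span both ends.

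Compared per kilobase of gene length, Rgs4, Rgs2 and Rgs11 had the highest levels and Rgs19 and Rgs3 the lowest. Rgs4 stood at 68.0 CPM per kb in the transgenic and 54.0 in the WT library, above 96.9% of all measured genes by its mean level. Rgs3 stood at 1.08 CPM per kb in the transgenic and 1.67 in the WT library, above 36.7% of measured genes. The order of levels was the same in both libraries except that Rgs17 ranked 7 and Rgs7 ranked 8 in the transgenic library, and the reverse held in the WT library. Neighbours in that order whose counting intervals overlapped were Rgs19 and Rgs3 in both libraries, and Rgs16 with Rgs5 and Rgs7 with Rgs17 in the WT library. Of the summed level per kb of the 10 genes, Rgs4 made up 36.6% in the transgenic and 30.1% in the WT library. Rgs2 made up 18.2% in the transgenic and 26.9% in the WT library, and Rgs16 made up 12.8% in the transgenic and 8.77% in the WT library. R4 genes together held 76.4% of the transgenic and 74.9% of the WT sum.

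**Figure D2:**
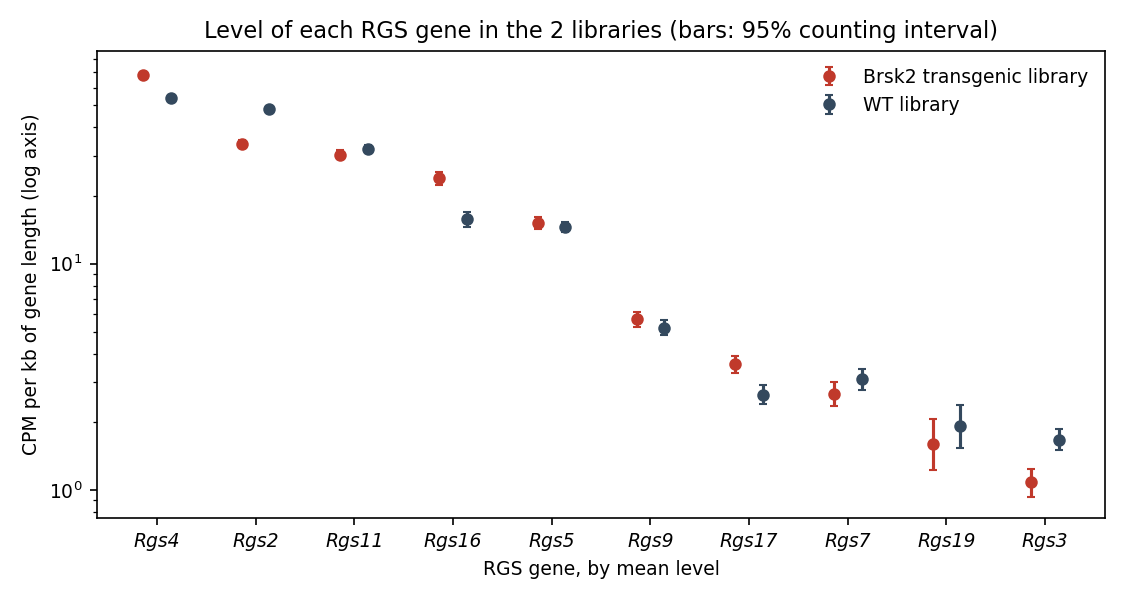
Level of each RGS gene in CPM per kb of gene length (log axis) in the transgenic (red, left) and WT (dark, right) library, with 95% counting intervals. Levels run between 68.0 and 1.08 CPM per kb in the transgenic library, and the points of Rgs2, Rgs16, Rgs4, Rgs17 and Rgs3 stand apart between libraries.

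Among the R4 genes, Rgs2 had a lower level in the transgenic library and Rgs4 and Rgs16 a higher one. Rgs2, a regulator with a preference for Gq that many cells induce quickly on stimulation, had 2093 reads (123 CPM) in the transgenic and 3518 reads (175 CPM) in the WT library. Its ratio was 0.702 [0.664, 0.741], which misses the 1.5-fold rule, and 7.66% of genes with at least 100 reads had a ratio as low. Rgs4, which acts on Gi/o and Gq and in mouse beta cells restrains insulin release driven by muscarinic receptors, had 3596 reads (211 CPM) in the transgenic and 3363 reads (167 CPM) in the WT library. Its ratio of 1.26 [1.203, 1.322] did not reach 1.5-fold. In the transgenic library Rgs2 thus had clearly fewer reads than Rgs4, and in the WT library slightly more. Per kb of gene length, Rgs4 stood above Rgs2 in both libraries. Their levels were 68.0 and 33.8 CPM per kb in the transgenic and 54.0 and 48.2 in the WT library.

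Reads of Rgs4 per read of Rgs2 numbered 1.72 in the transgenic and 0.956 in the WT library, a quotient of 1.80 [1.67, 1.93]. This quotient does not depend on how the libraries are scaled, since gene length and library size cancel. Of all 45 pairs of members, 33 had a quotient whose interval excluded 1, with no adjustment for the number of pairs. The same share over pairs of other genes was not computed, so this count does not set RGS genes apart. Among single genes with at least 100 reads, 22.8% had an interval above 1 and 29.4% had one below 1. The pair farthest apart was Rgs16 over Rgs3, at 4.77 reads of Rgs16 per read of Rgs3 in the transgenic and 2.04 in the WT library, a quotient of 2.34 [1.92, 2.87].

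Rgs16, known in mice from embryonic endocrine progenitors and as a gene induced by the glucose-sensing factor ChREBP in liver, had 950 reads (55.7 CPM) in the transgenic and 739 reads (36.7 CPM) in the WT library. The ratio was 1.52 [1.38, 1.67], just past 1.5-fold, and 5.34% of genes with at least 100 reads had a ratio as high. The lower bound of the interval falls under 1.5, and scaled to pan-endocrine genes the ratio was 1.39, so the call of Rgs16 ended there. With that scaling no member was higher and Rgs2 (0.641) and Rgs3 were lower, against 5.38% of all genes higher and 9.12% lower. Rgs3, which acts on Gi and Gq and is made in long and short forms, had 199 reads (11.7 CPM) in the transgenic and 363 reads (18.04 CPM) in the WT library. Its ratio was 0.647 [0.541, 0.771]. The counts sum over its 17 annotated transcripts, 8 of them coding, so they do not show which form was lower.

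Rgs5, best known as a marker of pericytes, had 1174 reads (68.8 CPM) in the transgenic and 1329 reads (66.1 CPM) in the WT library. The libraries did not differ beyond counting error, at 1.04 [0.962, 1.13], and the ratio fell on the other side of 1 (0.952) when scaled to pan-endocrine genes. Of 13 markers of pericytes and other mural cells without Rgs5, 3 were higher and 1 (Cspg4, 0.549 [0.334, 0.881]) lower, or 1 higher and 1 lower when scaled to pan-endocrine genes, and none was at 0. Their median log2 ratio was -0.02, and the most abundant by CPM, Notch3, was at 1.245 [0.985, 1.575]. Their summed level was 13.4 CPM per kb in the transgenic and 9.37 in the WT library, while Rgs5 alone stood at 15.1 CPM per kb in the transgenic and 14.5 in the WT library. Vtn, at 2.39 [1.82, 3.14], made up much of the difference in that sum, and the other 12 markers summed to 8.502 CPM per kb in the transgenic and 7.34 in the WT library. Their part in the value of Rgs5 was not tested. Summed over the 5 R4 genes the ratio was 1.01 [0.985, 1.05].

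**Figure D3:**
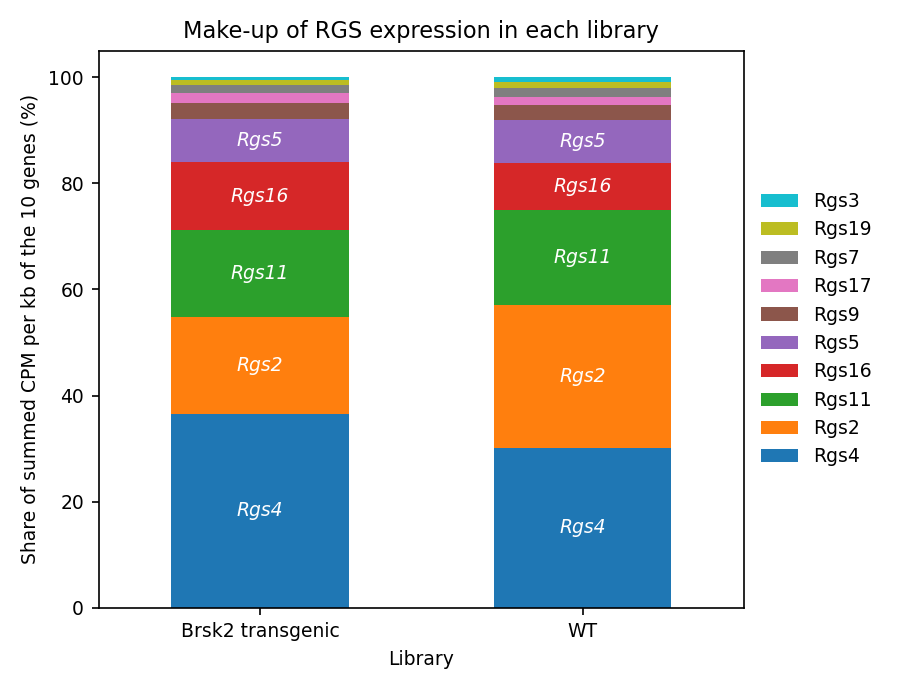
Share of each RGS gene in the summed level per kb of the 10 genes, in percent, for the transgenic (left bar) and WT (right bar) library. Rgs2 holds 18.2% of the transgenic and 26.9% of the WT bar, Rgs4 holds 36.6% of the transgenic and 30.1% of the WT bar, and Rgs16 holds 12.8% of the transgenic and 8.77% of the WT bar.

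None of the 3 R7 genes differed beyond counting error with TMM scaling. Rgs11, known with Rgs7 from the signal of retinal bipolar cells, had 2177 reads (128 CPM) in the transgenic and 2715 reads (135 CPM) in the WT library, a ratio of 0.946 [0.894, 1.001]. Scaled to pan-endocrine genes, the ratio of Rgs11 was 0.864, outside that interval. Exons of Rgs11 share 138 bases with those of Arhgdig on the opposite strand, 3.28% of the exonic bases of Rgs11. Since the sources used here do not say whether reads were counted by strand, some reads of these neighbours cannot be told apart. Rgs9, which ends the light response in photoreceptors and acts in the striatum, had 619 reads (36.3 CPM) in the transgenic and 670 reads (33.3 CPM) in the WT library. The ratio was 1.09 [0.975, 1.22], and 0.995 when scaled to pan-endocrine genes. Rgs7, a neuronal regulator of Gi/o, had 273 reads (16.005 CPM) in the transgenic and 373 reads (18.5 CPM) in the WT library. Its ratio was 0.863 [0.736, 1.01], and 0.789 when scaled to pan-endocrine genes.

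Summed, the R7 genes had a ratio of 0.963 [0.918, 1.01]. Gnb5, the beta subunit that stabilizes R7 proteins, was at 23.6 CPM in the transgenic and 20.9 CPM in the WT library, a ratio of 1.13 [0.980, 1.29]. Gpr158, an orphan receptor that brings R7 proteins to the membrane, was lower, at 42.6 CPM in the transgenic and 76.6 CPM in the WT library (0.555 [0.508, 0.607]). The membrane anchor Rgs7bp was at 0.773 [0.644, 0.928], short of 1.5-fold. The anchor Rgs9bp had 1 transgenic and 10 WT reads, a ratio of 0.118 [0.00272, 0.829], which rests on very few reads. Of the 8 partner genes, the lower ones were Gpr158 and Rgs9bp, none was higher, the most abundant, the scaffold Ppp1r9b, was at 0.8003 [0.751, 0.853], and the median log2 ratio was -0.19.

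The RZ genes lay on either side of 1. Rgs17 had 509 reads (29.8 CPM) in the transgenic and 441 reads (21.9 CPM) in the WT library, a ratio of 1.36 [1.196, 1.550]. Rgs19, which acts on Gi and Gz, had 61 reads (3.58 CPM) in the transgenic and 86 reads (4.27 CPM) in the WT library. At 0.837 [0.593, 1.18] a difference was not detectable at this depth. The sum of both had a ratio of 1.28 [1.13, 1.44], set almost wholly by Rgs17. Gnaz, the alpha subunit of Gz, was at 0.761 [0.7099, 0.815], short of the 1.5-fold rule.

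Of the 10 members, 5 lie on chromosome 1 of GRCm38. Rgs5 (169655501 to 169695813, plus strand) and Rgs4 (169741477 to 169747642, minus strand) are 45.7 kb apart, and their ratios were 1.04 and 1.26. Reads of Rgs4 per read of Rgs5 numbered 3.06 in the transgenic and 2.53 in the WT library, a quotient of 1.21 [1.103, 1.328], so these neighbours differed beyond counting error. Rgs2 (143999338 to 144004161, minus strand) lies 238 kb from Rgs1, the nearest protein-coding gene with at least 100 reads on its right, which was at 1.37 [0.993, 1.88]. Rgs16 spans 153740349 to 153745468 on the plus strand and Rgs7 175059087 to 175492500 on the minus strand. The others are Rgs3 (chromosome 4, 62559847 to 62704001), Rgs17 (chromosome 10, 5825663 to 5922400), Rgs9 (chromosome 11, 109225355 to 109298129), Rgs11 (chromosome 17, 26202951 to 26211324) and Rgs19 (chromosome 2, 181688419 to 181693977). The small R4 genes Rgs2, Rgs4, Rgs5 and Rgs16 encode at most 211, 205, 181 and 201 codons, and Rgs7, Rgs9 and Rgs11 at most 477, 675 and 466.

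Promoter windows, 250 bases before to 50 after the annotated start, were found in RefSeq (GRCm38.p6) for 9 of the 10 genes (all but Rgs11), with 12 windows in all. Those of the 5 genes whose interval excluded 1 are printed 5′ to 3′ on the gene's strand, with short known elements marked. As these 5 genes were picked by their ratios, their windows cannot show what goes with a higher or lower ratio. Capitals mark matches to TGACG (a half-site of the cAMP response element), TATAAA (the TATA element) or TGANTCA (the AP-1 element of Fos and Jun), on either strand. The windows of Rgs2 and of Rgs3, which has 2 starts, come from genes with a ratio below 1:
Rgs2, chr1:144004100-144004399, minus strand: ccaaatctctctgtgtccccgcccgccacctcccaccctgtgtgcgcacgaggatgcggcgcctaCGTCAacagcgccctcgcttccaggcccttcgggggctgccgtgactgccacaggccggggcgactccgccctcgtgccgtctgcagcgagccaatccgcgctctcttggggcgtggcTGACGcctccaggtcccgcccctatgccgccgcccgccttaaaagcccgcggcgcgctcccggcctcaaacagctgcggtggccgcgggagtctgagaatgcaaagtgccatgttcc
Rgs3 start 1, chr4:62559597-62559896, plus strand: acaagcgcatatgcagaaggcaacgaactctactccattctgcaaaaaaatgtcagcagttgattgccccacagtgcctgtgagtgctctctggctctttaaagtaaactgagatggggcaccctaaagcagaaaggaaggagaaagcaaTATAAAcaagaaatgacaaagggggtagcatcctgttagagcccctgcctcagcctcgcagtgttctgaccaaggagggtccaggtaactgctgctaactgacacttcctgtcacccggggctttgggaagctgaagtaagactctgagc
Rgs3 start 2, chr4:62619422-62619721, plus strand: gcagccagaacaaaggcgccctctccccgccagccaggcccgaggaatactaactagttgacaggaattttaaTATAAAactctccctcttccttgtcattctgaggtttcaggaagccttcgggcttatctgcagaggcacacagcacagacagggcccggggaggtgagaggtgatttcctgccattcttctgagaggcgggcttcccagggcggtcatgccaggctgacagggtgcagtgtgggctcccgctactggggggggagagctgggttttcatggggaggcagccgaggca
The windows of Rgs4, Rgs16 and Rgs17 come from genes with a ratio above 1:
Rgs4, chr1:169747593-169747892, minus strand: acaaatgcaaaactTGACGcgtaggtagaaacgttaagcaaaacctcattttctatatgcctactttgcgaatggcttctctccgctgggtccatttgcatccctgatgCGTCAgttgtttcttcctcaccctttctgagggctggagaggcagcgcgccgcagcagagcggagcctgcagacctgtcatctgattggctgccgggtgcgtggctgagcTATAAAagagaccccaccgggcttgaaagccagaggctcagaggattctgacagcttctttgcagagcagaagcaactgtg
Rgs16, chr1:153740103-153740402, plus strand: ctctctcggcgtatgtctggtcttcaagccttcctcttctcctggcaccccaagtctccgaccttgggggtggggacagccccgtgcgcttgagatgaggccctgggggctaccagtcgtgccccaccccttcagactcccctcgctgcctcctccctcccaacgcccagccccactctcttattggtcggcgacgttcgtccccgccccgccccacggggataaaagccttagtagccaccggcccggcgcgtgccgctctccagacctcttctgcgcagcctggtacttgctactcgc
Rgs17, chr10:5922351-5922650, minus strand: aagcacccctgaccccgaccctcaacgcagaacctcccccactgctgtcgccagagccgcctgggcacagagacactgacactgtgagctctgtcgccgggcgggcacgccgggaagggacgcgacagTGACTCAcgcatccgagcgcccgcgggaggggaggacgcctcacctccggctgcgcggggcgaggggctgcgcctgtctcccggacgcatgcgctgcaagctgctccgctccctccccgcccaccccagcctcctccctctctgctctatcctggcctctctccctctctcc

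TGACG was found in Rgs2 and Rgs4 and in no other member window, with 2 matches in each, and in 20.8% of all 32851 windows in the RefSeq table. Rgs2 had a ratio of 0.702 and Rgs4 a ratio of 1.26, and a part of these matches in either value was not tested. The whole element TGACGTCA was in none of the 12 member windows and in 1.79% of all windows. In Rgs4, TATAAA began 31 bases before the start, and TATAAA was also in both Rgs3 windows and in Rgs9, against 13.6% of all windows. TGANTCA was in Rgs17 alone, against 7.81% of all windows. The E-box CACGTG was in Rgs7 and in 1 of the 3 windows of Rgs19, against 7.15%, and the CArG box of SRF was in none, against 1.63%. Member windows had a median GC content of 63.2% and a median of 20.5 CpG, against 52.7% and 7 over all windows. The windows of all genes were not matched to the members by level of expression, and windows of Rgs19 partly overlap. By GC the printed windows ran between 71% in Rgs17 and 49.7% in Rgs3 start 1, and genes with ratios above and below 1 overlapped.

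**Figure D4:**
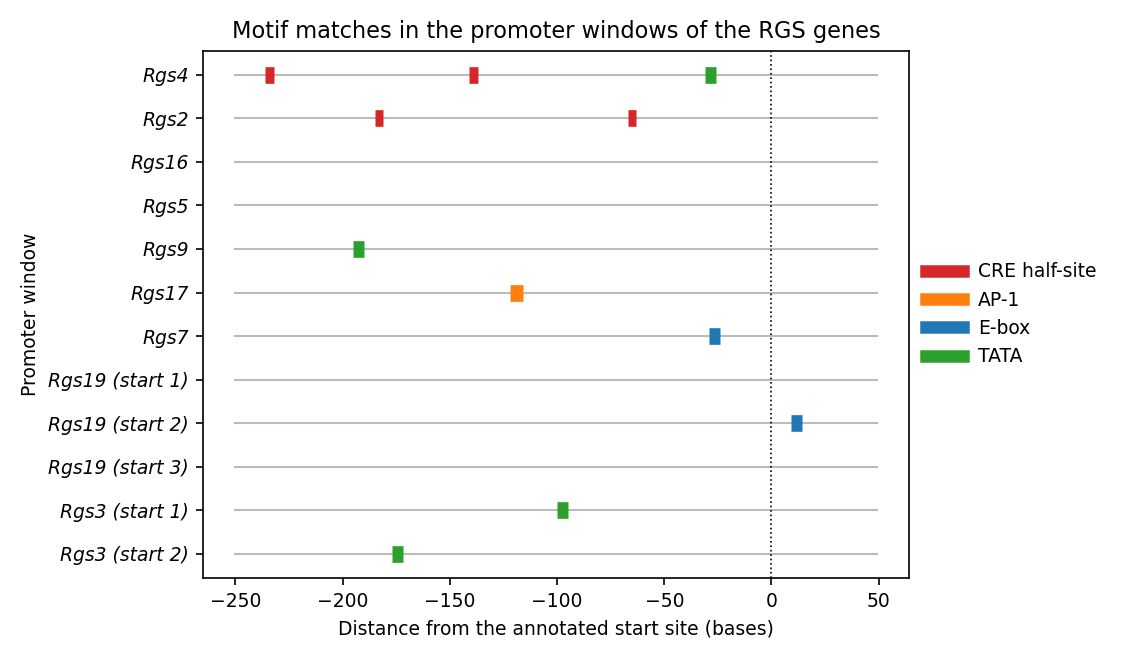
Motif matches (coloured blocks) in each promoter window of the RGS genes, by distance in bases from the annotated start (dotted line). CRE half-sites (TGACG) lie in Rgs2 and Rgs4 only, and the TATA match of Rgs4 begins 31 bases before the start.

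Summed, the other Rgs genes were read far less than the members, at 13.5 CPM in the transgenic and 12.3 CPM in the WT library. Over both libraries, Rgs1 (164 reads) and Rgs12 (149 reads) still had slightly more reads than the member Rgs19 (147 reads). Of the 12 other Rgs genes, 6 had at least 10 reads and none was called in either direction. The median log2 ratio of those measured was 0.10, or -0.04 when scaled to pan-endocrine genes. Rgs1, a regulator best known from lymphocytes, had the most reads of them, with 88 in the transgenic and 76 in the WT library. Rgs13 and Rgs21 had 0 reads in both libraries, which allows up to 0.176 CPM in the transgenic and 0.149 CPM in the WT library (3 reads).

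Alpha subunits, the targets of RGS proteins, were mostly at or a little under the WT level. Of 7 measured Gi/o subunits, 2 were lower and none higher, and the median log2 ratio was -0.20. Gnai3 was lower at 154 CPM in the transgenic and 231 CPM in the WT library (0.666 [0.634, 0.698], or 0.684 with library totals, which misses the rule), and the rod transducin Gnat1 had 8 reads in the transgenic and 28 in the WT library. Gnao1, the most abundant of the list by CPM, was at 0.909 [0.877, 0.943]. None of 3 Gq subunits was called, with Gna11 at 0.949 [0.886, 1.02]. None of 4 Gs, G12 and G13 subunits was called, with Gnas at 1.02 [0.965, 1.09]. Of 13 beta and gamma subunits, Gnb4 (1.61 [1.294, 1.999], or 1.47 scaled to pan-endocrine genes) and Gng3 (34 transgenic and 20 WT reads) were higher and none lower, with a median log2 ratio of 0.15. The most abundant by CPM, Gng12, was at 1.02 [0.980, 1.06].

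Receptors differed in both directions within each coupling class. Of 14 measured receptors that couple to Gi/o, the somatostatin receptor Sstr2 (1.88 [1.53, 2.33]) and the prostaglandin receptor Ptger3 (1.86 [1.37, 2.56]) were higher and the adrenaline receptor Adra2a was lower, at 79.4 CPM in the transgenic and 124 CPM in the WT library (0.643 [0.601, 0.687]). The most abundant by CPM, Sstr3, was at 0.698 [0.667, 0.730], short of 1.5-fold. Of 13 that couple to Gq, the cholecystokinin receptor Cckar (2.53 [1.96, 3.29]) and the nucleotide receptor P2ry1 (1.81 [1.595, 2.055]) were higher and the muscarinic receptor Chrm3 was lower. Chrm3, whose signal Rgs4 restrains in mouse beta cells, was at 17.0 CPM in the transgenic and 26.6 CPM in the WT library (0.639 [0.552, 0.739]). Cckar is also a receptor of acinar cells in mice, and all 22 acinar genes listed were higher, with a summed ratio of 4.46. The part of acinar cells in the value of Cckar was not tested. The fatty acid receptor Ffar1, the most abundant of the Gq list by CPM, was at 1.09 [0.999, 1.19]. Of 10 that couple to Gs, Gpr119 (1.548 [1.2025, 1.998], or 1.41 scaled to pan-endocrine genes) was higher, and Glp1r (0.580 [0.522, 0.645]) and Vipr2 (0.405 [0.267, 0.5995]) were lower. The incretin receptor Gipr, the most abundant of the Gs list by CPM, was at 0.918 [0.862, 0.979]. Median log2 ratios were 0.06 for Gi/o, 0.34 for Gq and 0.06 for Gs receptors, and scaled to pan-endocrine genes -0.07, 0.21 and -0.07.

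Downstream of the receptors, each of the lists below had 1 called gene. For comparison, calls across all 17709 measured genes came to 7.78% (higher) and 5.89% (lower). A count of 1 per list therefore does not mark these genes as unusually unchanged. Of 18 measured effectors, the calcium release channel Itpr2 was lower (0.636 [0.518, 0.778]) and none higher, with a median log2 ratio of -0.14. The most abundant by CPM, the adenylyl cyclase Adcy6, was at 1.17 [1.09, 1.26]. Of 7 receptor kinases and arrestins, which end receptor signals by another route, Grk5 was lower at 27.8 CPM in the transgenic and 64.2 CPM in the WT library (0.434 [0.390, 0.482]) and none higher. The median log2 ratio of these genes was -0.04, and the most abundant by CPM, the receptor kinase Grk3, was at 1.04 [0.993, 1.09]. Of 9 other regulators of alpha subunits, the GoLoco protein Gpsm2 was higher (1.59 [1.27, 1.98], or 1.45 scaled to pan-endocrine genes) and none lower, and the median was 0.21. The most abundant by CPM, Nucb1, was at 0.948 [0.901, 0.997]. The N-degron pathway, which in mice degrades Rgs4, Rgs5 and Rgs16 proteins, had 1 lower gene among 7 and none higher, its median at -0.14. That gene was Ate1, the arginyltransferase of the pathway, at 113 CPM in the transgenic and 174 CPM in the WT library (0.651 [0.615, 0.688], or 0.668 with library totals, which misses the rule). The ubiquitin ligase Ubr4, the most abundant of the list by CPM, was at 0.804 [0.770, 0.840]. Protein levels were not measured.

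Genes of the immediate early response, to which Rgs2 is often counted, were lower in 16 of 20 cases and higher in none. Over all genes with at least 10 reads, 5.89% were lower and 7.78% higher. The median log2 ratio of these 20 genes was -0.85. The activity-induced genes Arc (0.317 [0.282, 0.355]), Nr4a1 (0.349 [0.320, 0.380]) and Npas4 (0.446 [0.415, 0.479]) were among those lower. Fosb had a ratio of 0.344 [0.329, 0.359] and Jund, the most abundant of them by CPM, 0.570 [0.552, 0.588], against 0.702 for Rgs2. Of 8 genes of the ChREBP group, the arrestin-like Txnip (1.67 [1.58, 1.75]) and Thrsp (39 transgenic and 23 WT reads) were higher and none lower, beside 1.52 for Rgs16. The factor itself, Mlxipl, was at 0.880 [0.849, 0.912], the most abundant by CPM, the lipogenic enzyme Acly, was at 0.888 [0.868, 0.908], and the median log2 ratio of the group was -0.11. Both lists were chosen with earlier results of these data known. Any link between them and the values of Rgs2 or Rgs16 was not tested.

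**Figure D5:**
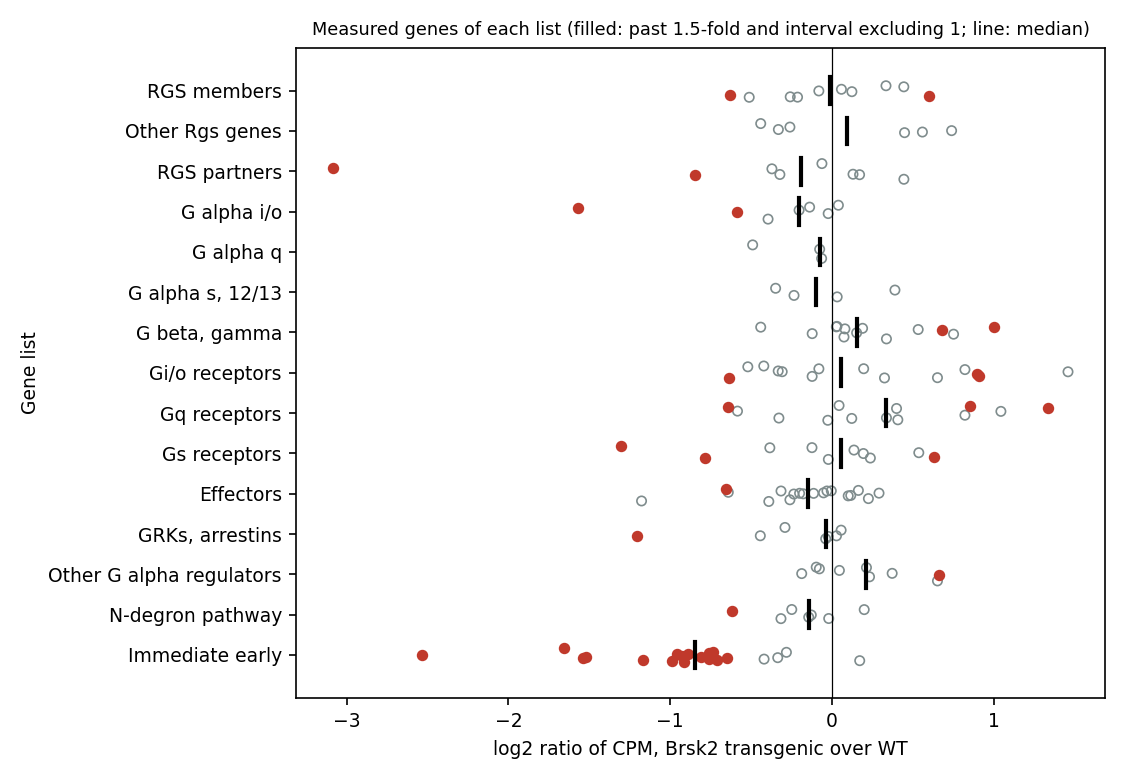
Log2 ratio of CPM, transgenic over WT, for the measured genes of each list (points; filled where past 1.5-fold with an interval that excluded 1; black line, median). The RGS members centre on -0.01, and immediate early genes lie lowest with a median of -0.85.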

How the data were processed

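RNA of islets was extracted with Trizol and libraries were built from total RNA with a TruSeq kit, per the labels' protocols. Groups were taken from the genotype label, with 1 library each. The authors deposited raw read counts per Ensembl gene. For aligner, counter, strand setting and build: not given in the sources used here. All 10 members had the same start and end in GENCODE M21 (GRCm38), as had 98.3% of the 54409 IDs found there, so coordinates are taken as GRCm38. A further deposited table holds the authors' listed genes with normalized counts (a signal scale), log2 fold changes and p-values, and was read only to look for members. The submitters' processing notes name DESeq2 1.10.1.

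Counts were scaled by TMM factors (edgeR 4.0.16, R 4.3.3; 1.01 transgenic, 0.987 WT) over genes with at least 10 reads in both libraries together. edgeR's quasi-likelihood test was not run, since 1 library per group leaves no spread. A read was worth 0.0586 CPM in the transgenic and 0.0497 CPM in the WT library. Ratios have exact Clopper-Pearson 95% intervals of the share of reads in the transgenic library, levels exact Poisson intervals, and pairs exact conditional odds ratio intervals (SciPy 1.17.1). As reads carried no molecular identifiers, these intervals and the floor of 3 reads cover counting error alone. Levels per kb use the deposited gene length, which equals the exon union of GENCODE M21 for each member. The calculation of ratios and intervals was checked on simulated Poisson counts, which hold counting error and no spread between animals. Members, lists and rules were chosen with earlier results of these data known. Named genes were the members and, per list, the most abundant gene and up to 4 called genes with at least 100 reads. These 4 were the called genes with the largest absolute log2 ratios, in either direction. Marker lists of cell types are mostly given as counts and sums, without naming each gene of that rule. Gnb5, Rgs7bp, Rgs9bp, Gnaz, Mlxipl, Rgs12, Rgs13, Rgs21, Gnat1, Gng3, Thrsp, Neurog3 and Cspg4 were named after their values were seen. Alternatives were size factors of DESeq2 1.42.0, plain library totals, TMM leaving out hormones and acinar genes, reads of pan-endocrine genes as denominator, read minimums and fold rules. Tables were handled with pandas 2.3.3 and drawn with matplotlib 3.10.9 in Python 3.11.15.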

Additional observations from a re-analysis of the deposited data

How the results depend on the processing

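No paired analysis was possible because each group has 1 library and no result comes from a test. For the same reason no library could be left out. With DESeq2 size factors, library totals, TMM without hormones and acinar genes, and minimums of 1 or 50 reads, Rgs16 was the 1 higher and Rgs3 the 1 lower member, as they also were at 1.5-fold with no condition on the interval. Every member's ratio stayed inside its interval under the 3 scalings just named. Scaling to the summed reads of 19 pan-endocrine genes moved the log2 ratio of every gene by -0.13. The median of the members became -0.14, beside -0.12 over all measured genes. Ratios were then 0.641 for Rgs2, 1.15 for Rgs4, 0.952 for Rgs5 and 0.864 for Rgs11, outside their intervals, with 0 members higher and 2 lower (Rgs2 and Rgs3). With library totals the median of the members was 0.03 in place of -0.01. At 2-fold, 0 members were higher and 0 lower, as the rule is stricter by construction. Scaling to pan-endocrine genes also gave 2 lower genes in place of 1 each among Gi/o receptors, Gq receptors and effectors, 0 higher in place of 1 among Gs receptors and other regulators of alpha subunits, and 1 higher in place of 2 among beta and gamma subunits. Depth limits Rgs19 most, with 61 transgenic and 86 WT reads.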

Other observations

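The genes next to the members on the chromosome gave values on both sides of 1. Taking the nearest protein-coding gene with at least 100 reads on each side, the 2 farthest from 1 were Cnksr3, 1197 kb from Rgs17, at 0.568 [0.494, 0.653], and Myt1, a zinc finger factor of the endocrine pancreas 69.4 kb from Rgs19, at 1.64 [1.52, 1.77]. Tcea2, which lies 0.348 kb from Rgs19, was at 1.42 [1.104, 1.823] beside 0.837 for Rgs19. Gna13, an alpha subunit 64.7 kb from Rgs9, was at 0.786 [0.725, 0.851] beside 1.09 for Rgs9. Axin1, which also carries an RGS domain and lies 7.14 kb from Rgs11, was at 0.824 [0.757, 0.897] beside 0.946 for Rgs11. These genes were named after their values were seen.

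Of 8 measured genes of endocrine progenitors, where Rgs16 is known from mouse embryos, Neurog3 (59 transgenic and 33 WT reads) and Nkx2-2 (1.502 [1.412, 1.598], but 1.496 with DESeq2 size factors and 1.37 scaled to pan-endocrine genes, which miss the rule) were higher and none lower, with a median log2 ratio of 0.39. Scaled to pan-endocrine genes, that median was 0.26. The most abundant by CPM, Nkx6-1, was at 1.37 [1.31, 1.43]. Some genes of this list, Nkx6-1 among them, are also in the beta cell, pan-endocrine or duct lists used here. The list therefore does not mark progenitors alone. In lists of other cells, 6 of 8 fibroblast genes were higher and none lower. None of 12 endothelial genes was called, but 1 was lower with DESeq2 size factors and 2 when scaled to pan-endocrine genes. Of 9 measured lymphocyte markers 2 were higher and 2 lower, and of 11 myeloid markers 1 and 1. Of 12 neural markers the counts were 3 and 2, of 8 duct markers 3 and 0, and of 5 red blood cell markers 4 and 0. Scaled to pan-endocrine genes, these counts were 2 and 3, 1 and 2, 3 and 3, 3 and 0, and 3 and 0. With library totals, the neural counts were 3 and 1. Of 8 genes of delta, gamma or epsilon cells 1 was higher and 0 lower. Those counts were 1 and 1 when scaled to pan-endocrine genes, and 2 and 0 with library totals. Of 8 alpha cell genes 3 were higher and 0 lower. Scaled to pan-endocrine genes, the alpha cell counts were 1 and 0, as Gcg then stood at 1.46 and Ttr at 1.40. Of 12 beta cell genes the counts were 0 and 8, and of 19 pan-endocrine genes 2 and 0. The part of these in the RGS values was not tested.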
